A study of Mus musculus with 4 samples.

Results

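The 86 genes described here are the protein-coding nuclear genes of oxidative phosphorylation, taken from the 43629 gene rows of each library by symbol. Symbols starting with Ndufa, Ndufb, Ndufc, Ndufs, Ndufv, Uqcr, Cox4 to Cox8 or Atp5, together with Sdha, Sdhb, Sdhc, Sdhd and Cyc1, were kept, while assembly factors starting with Ndufaf and pseudogenes were not. They comprised 36 genes of complex I, 4 of complex II, 9 of complex III, 20 of complex IV and 17 of complex V, and 85 of them passed the filter on low counts. Poly(A) RNA was sequenced from mouse embryonic stem cells of 129/Ola background kept in serum plus LIF, to compare cells with a knockout of Drosha, which encodes the nuclease that cuts primary microRNA transcripts, with wild-type cells. The Drosha knockout group held 2 libraries at passage 7, KO1 with the proline-rich region of Drosha deleted and KO2 with its R/S-rich region deleted. The wild-type group held 2 libraries of the E14 line, WT1 at passage 33 and WT2 at passage 42, which are labelled as re-used. The knockout titles also carry a mark, d5, that the labels do not explain. Genotype, passage and origin of the libraries coincide and cannot be told apart, and the labels do not say whether the libraries of a group are separate cultures. What the p-values measure is therefore the spread of these samples alone. By the labels that spread mixes 2 deletions in the knockouts and 2 passages in the wild types, and it may be partly technical.

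Library totals ranged from 29264632 to 42322129 counts. Drosha stood at 158 CPM (counts scaled for library size) in both knockout libraries and at 364 CPM (WT1) and 357 CPM (WT2) in the wild types. The 7 embryonic stem cell markers were expressed in all 4 libraries, with none called by edgeR (2 unadjusted p under 0.05, 0 called by DESeq2), and their summed level was 6239, 6347, 5486 and 6310 CPM in KO1, KO2, WT1 and WT2. Among 17022 genes tested with edgeR's quasi-likelihood test and Benjamini-Hochberg adjustment, 597 (3.51%) were higher and 330 (1.94%) lower in the knockout at an adjusted p under 0.05, which is what called means below. The smallest adjusted p was 0.0482, so called genes lay just under the threshold.

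In oxidative phosphorylation, complexes I and II take electrons from NADH and succinate and pass them through coenzyme Q to complex III, from there through cytochrome c to complex IV, and on to oxygen. Complexes I, III and IV pump protons across the inner mitochondrial membrane, and complex V, the ATP synthase, uses the returning protons to make ATP. Most subunits are encoded in the nucleus and imported, the rest are encoded in mitochondrial DNA, and mouse embryonic stem cells are known to use both respiration and glycolysis.

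In the knockout libraries 8 subunit genes, spread over all 5 complexes, were called higher and none lower. Ndufa13, Ndufa2, Ndufs8 and Ndufa7 of complex I, Sdhb of complex II, Uqcrq of complex III, Cox6a1 of complex IV and Atp5d of complex V rose, by log2 fold changes from 0.89 to 1.53 in knockout over wild type. These 8 were 9.41% of the 85 tested members, against the 3.51% of all tested genes called higher. None of the members was called lower with edgeR, where 1.94% of all genes were, and 0 had an unadjusted p under 0.05 with a negative fold change, against 34 with a positive one, where 17.7% and 19.4% of all tested genes did. DESeq2 called 25 members higher and 1, Ndufs1, lower, beside 12.9% of all genes called higher and 11.1% lower. Of the members, 54 had a fitted log2 fold change above 0 and 31 below, with a median of 0.15, against -0.02 over all tested genes. All 8 calls were lost when trends with GC content and length were removed, or with library totals or upper-quartile scaling in place of TMM (0 members called in each, where none of the 17022 genes was called either). The count also depended on single libraries, with 0 members called higher without KO1 or without KO2, 40 higher and 31 lower without WT1, and 57 higher and 10 lower without WT2. Leaving out a wild type makes the spread come from the knockout pair alone, and then at least 33.3% of all genes were called in each direction.

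Both knockout libraries lay above both wild types for 44 of the 85 members and below both for 11, where 36.5% and 34.8% of all tested genes did so. The members together took 1.33% of all counts in each of KO1 and KO2, beside 1.03% (WT1) and 1.15% (WT2). On this scale the groups did not overlap, and the knockout share was higher by 0.241 percentage points. On the TMM scale they did, with summed levels of 12600.0 and 12670.0 CPM in KO1 and KO2, 10310.0 CPM in WT1 and 12640.0 CPM in WT2, which lay between the knockouts. With 2 libraries against 2, a two-sided exact permutation test cannot go below 0.333.

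**Figure D1:**
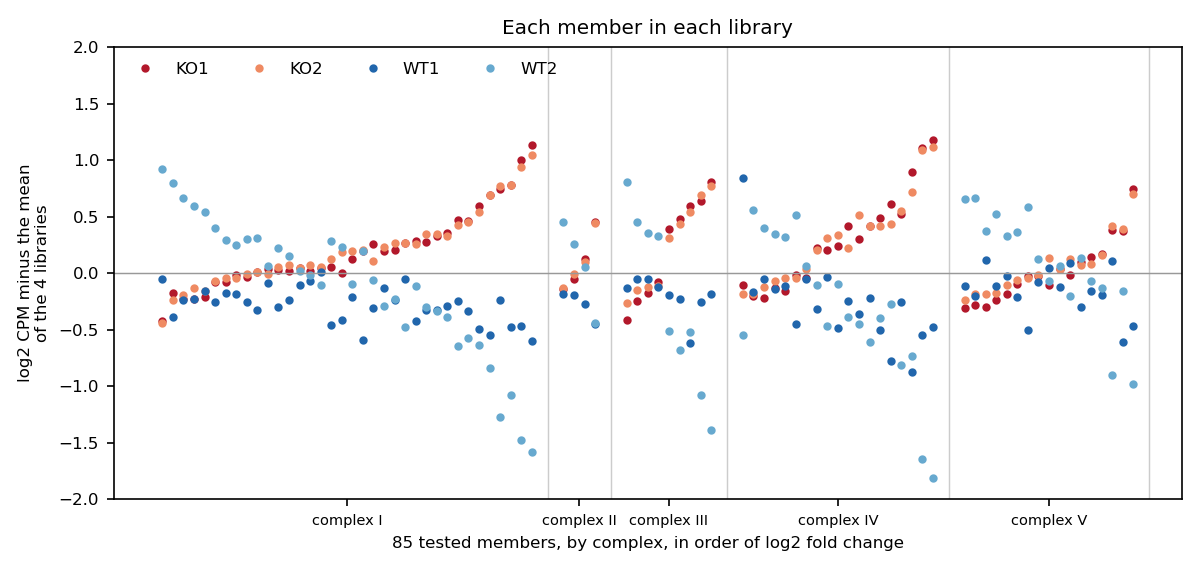
Level of each of the 85 tested members in KO1, KO2, WT1 and WT2, as log2 CPM minus the mean of the 4 libraries (y axis), by complex and in order of log2 fold change within it (x axis). The 2 knockout points lie almost on each other for most members, with a median absolute log2 ratio of 0.0432, while the 2 wild-type points lie farther apart, with a median of 0.436.

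Members differed in base composition, which is printed here because the fold changes below followed it. The first 120 coding bases of 4 members are given 5' to 3', from the GENCODE M21 transcripts of build mm10, with every G and C in capitals. Cox6a1 and Ndufa13 were picked as the called members of highest GC content, so their high shares follow from the choice. The other called members ranged from 51.7% (Uqcrq) to 59.3% (Atp5d) over their transcripts. Ndufs1 and Uqcrb had the lowest fitted fold changes of complexes I and III.
Cox6a1: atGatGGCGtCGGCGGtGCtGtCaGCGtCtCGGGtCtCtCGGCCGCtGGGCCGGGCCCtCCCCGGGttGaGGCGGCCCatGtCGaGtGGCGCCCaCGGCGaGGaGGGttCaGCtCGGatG
Ndufa13: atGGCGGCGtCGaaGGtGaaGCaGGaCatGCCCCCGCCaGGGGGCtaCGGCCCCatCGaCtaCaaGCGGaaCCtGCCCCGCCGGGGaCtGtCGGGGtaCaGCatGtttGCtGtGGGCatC
Ndufs1: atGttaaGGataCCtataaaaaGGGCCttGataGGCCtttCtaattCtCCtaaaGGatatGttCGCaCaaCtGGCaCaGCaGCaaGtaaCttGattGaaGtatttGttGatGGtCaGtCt
Uqcrb: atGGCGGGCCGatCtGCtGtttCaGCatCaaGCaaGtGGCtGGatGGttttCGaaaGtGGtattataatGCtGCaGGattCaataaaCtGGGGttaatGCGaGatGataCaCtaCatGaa
G and C made up 72.5% of the printed stretch of Cox6a1 and 66.7% of that of Ndufa13, against 39.2% in Ndufs1 and 44.2% in Uqcrb. Over the whole coding sequence the shares were 64.3%, 60%, 45.1% and 42.9%, in the same order. Cox6a1 lies on chromosome 5 (115345642 to 115348981), Ndufa13 on chromosome 8 (69894180 to 69902558), Ndufs1 on chromosome 1 (63143596 to 63176833) and Uqcrb on chromosome 13 (66900617 to 66905378), all on the minus strand.

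Complex I, which oxidises NADH, had 4 of its 36 subunit genes called higher (11.1%), 0 lower, and a median log2 fold change of 0.23. Its hydrophilic arm carries the flavin and the chain of iron-sulfur clusters, and its core subunits had fold changes in both directions. Ndufs8 (chromosome 19, 3908863 to 3912774), a core iron-sulfur subunit, had 56.0 CPM (KO1), 53.8 CPM (KO2), 26.3 CPM (WT1) and 23.9 CPM (WT2). Both knockout libraries stood above both wild types, and it rose by 1.13 ± 0.13 (log2, SE; edgeR adjusted p = 0.0482). Ndufs7, another core iron-sulfur subunit, had the highest fold change of the complex, 2.09 ± 0.37, and did not pass (edgeR adjusted p = 0.0529). Its levels of 49.7 and 47.0 CPM in KO1 and KO2 were clear of 15 CPM in WT1 and 7.61 CPM in WT2, but the wild types differed from each other almost 2-fold. Ndufv1, which binds NADH and the flavin, had a log2 fold change of 0.88 ± 0.18 at an edgeR adjusted p of 0.0576.

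Ndufs1, the largest core subunit, had 158 CPM (KO1) and 156 CPM (KO2) but 204 CPM (WT1) and 401 CPM (WT2). Both knockout libraries were below both wild types, with WT2 far above WT1, and the log2 fold change of -0.95 ± 0.35 did not pass in edgeR (adjusted p = 0.137), whereas DESeq2 gave an adjusted p of 0.0344. The 7 core genes had a median log2 fold change of 0.05.

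The 9 accessory genes of the hydrophilic arm had a median of 0.42, and 2 of them rose. Ndufa2, on chromosome 18, had 54.3 CPM in both KO1 and KO2, and WT1 and WT2 had 23.0 and 18.8 CPM. The knockout libraries were more than 2-fold above each wild type, and the log2 fold change was 1.38 ± 0.16 (edgeR adjusted p = 0.0482). Ndufa7 (chromosome 17, 33824572 to 33838317) had 129 and 128 CPM (KO1 and KO2) beside 74.2 and 62.6 CPM (WT1 and WT2), without overlap, and rose by 0.91 ± 0.14 (edgeR adjusted p = 0.0489).

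In the membrane arm, which pumps protons, 1 of 20 genes rose and the median was 0.23. Ndufa13, an accessory subunit also known as GRIM-19, had 60.5 CPM (KO1), 60.8 CPM (KO2), 25.4 CPM (WT1) and 16.7 CPM (WT2). Knockout libraries agreed closely and stood above both wild types, giving a fold of 2.88 and a log2 fold change of 1.53 ± 0.24 at an edgeR adjusted p of 0.0499. Ndufb7 reached a log2 fold change of 1.86 ± 0.37 without passing (edgeR adjusted p = 0.0581), at 48.5 and 46.4 CPM in KO1 and KO2 and 17.4 and 8.69 CPM in WT1 and WT2. Ndufa11 had knockout levels of 74.6 and 75.8 CPM beside wild-type levels of 37.8 and 18.4 CPM, a log2 fold change of 1.42 ± 0.38 at an edgeR adjusted p of 0.0816. In both genes the groups did not overlap and WT1 was about 2-fold above WT2. Ndufab1, the mitochondrial acyl carrier protein, stood at knockout levels of 20.6 and 21.1 CPM beside wild-type levels of 20.4 and 38.1 CPM, where WT1 was level with the knockouts. Ndufb4 likewise had WT1 near the knockouts (4.73 CPM against 5.48 and 5.25 CPM) and WT2 at 10.7 CPM.

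**Figure D2:**
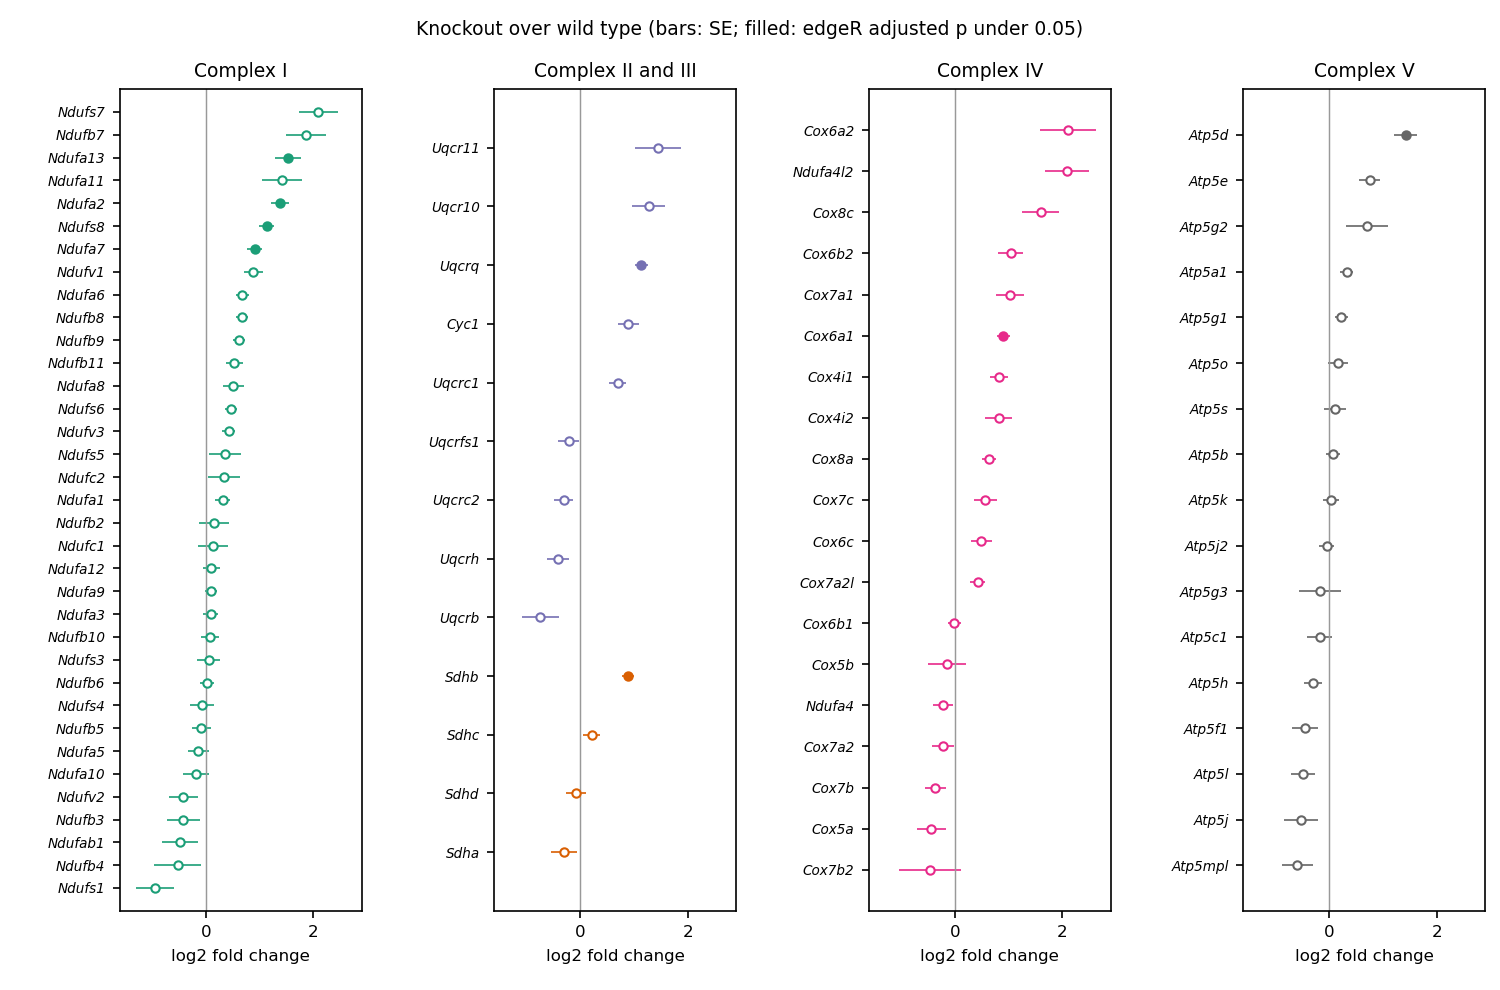
Log2 fold change of knockout over wild type for 84 of the 85 tested members (x axis, bars are the SE), with members named on the y axis in order within each complex, and filled points for the 8 with an edgeR adjusted p under 0.05. The highest values, from 2.09 to 2.11 for Ndufs7, Ndufa4l2 and Cox6a2, have wide bars and open points, while the filled points have narrower bars.

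Complex II, succinate dehydrogenase, is encoded by 4 nuclear genes, of which only Sdhb was called. Sdhb (chromosome 4, 140961203 to 140979193), the iron-sulfur subunit, had 134 CPM (KO1), 133 CPM (KO2), 71.7 CPM (WT1) and 72.0 CPM (WT2). Libraries of each group agreed within 1 CPM or so and the groups stood well apart, with a log2 fold change of 0.89 ± 0.11 at an edgeR adjusted p of 0.0482. None of its partners passed. Sdha, the flavoprotein that oxidises succinate, had a log2 fold change of -0.30 ± 0.24 and overlapping groups (knockouts 250 and 251 CPM, wild types 242 and 376 CPM). The membrane anchors Sdhc and Sdhd had log2 fold changes of 0.21 ± 0.16 and -0.08 ± 0.19, and neither passed. The difference between Sdhb and its partners was not tested.

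Complex III, which passes electrons from coenzyme Q to cytochrome c, split into 5 genes with fold changes above 0 and 4 below, with a median of 0.70. Uqcrq (chromosome 11, 53427922 to 53430831), a small subunit of the membrane part, had 98.8 and 95.5 CPM (KO1 and KO2) beside 42.8 and 45.7 CPM (WT1 and WT2). It was the only gene of the complex that was called, at 1.13 ± 0.12 (log2, edgeR adjusted p = 0.0482), with each group tight and no overlap. The small subunits Uqcr11 (56.0 and 54.8 CPM against 28.2 and 12.3 CPM) and Uqcr10 (115 and 120 CPM against 61.9 and 35.0 CPM) had log2 fold changes of 1.45 ± 0.43 and 1.28 ± 0.31, and edgeR adjusted p of 0.0954 and 0.0707.

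Among the catalytic subunits, Cyc1, cytochrome c1, had knockout levels of 372 and 362 CPM beside wild-type levels of 228 and 167 CPM, a log2 fold change of 0.89 ± 0.19 at an edgeR adjusted p of 0.0616. Uqcrc1, a core protein, had a log2 fold change of 0.70 ± 0.16 at an edgeR adjusted p of 0.0666, and Uqcrfs1, the Rieske iron-sulfur protein, of -0.22 ± 0.19 (edgeR adjusted p = 0.44). Uqcrb had 59.3 and 66 CPM in the knockouts, 72.4 CPM in WT1 and 139 CPM in WT2, and Uqcrh, the hinge protein, had 123, 131, 140 and 199 CPM in the same order. Both were lower in the knockouts without overlap, mostly by distance from WT2, and neither passed (edgeR adjusted p = 0.189 and 0.215).

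Complex IV, cytochrome c oxidase, had 1 of 19 tested genes called higher and a median of 0.57. Its 12 widely used subunits had a median of 0.21, with 6 above and 6 below 0, and the 7 tested tissue isoforms one of 1.04. Cox6a1, a subunit beside the catalytic core, had 159 CPM (KO1), 152 CPM (KO2), 80.1 CPM (WT1) and 85.8 CPM (WT2). The groups were almost 2-fold apart, at 0.90 ± 0.12 on the log2 scale (edgeR adjusted p = 0.0482). Cox4i1, which binds ATP and regulates the enzyme, had 438 and 436 CPM against 281 and 215 CPM, also without overlap, and did not pass (0.82 ± 0.17, edgeR adjusted p = 0.0615). Cox5a and Cox7b had log2 fold changes of -0.44 ± 0.27 and -0.37 ± 0.19, with WT2 highest for both. Cox7a2l, which joins complexes III and IV in supercomplexes, had knockout levels of 88.8 and 87.6 CPM beside wild-type levels of 61.0 and 70.5 CPM (0.42 ± 0.13, edgeR adjusted p = 0.105).

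Several subunits of complex IV exist as pairs, one used widely and one in few tissues, and 8 such tissue isoforms were among the members. None was called by edgeR, 6 of the 7 tested had an unadjusted p under 0.05, DESeq2 called 3 higher, and their median was 1.04, or 0.45 with GC and length trends removed. Of all tested genes 19.4% were higher with an unadjusted p under 0.05, and DESeq2 called 12.9% higher. The tested isoforms had a median GC content of 55.0%, against 50.3% over all tested genes. Ndufa4l2, known as a gene induced by hypoxia, had 21.8 and 21.5 CPM (KO1 and KO2) beside 6.94 and 3.25 CPM (WT1 and WT2), at 2.09 ± 0.41 with an edgeR adjusted p of 0.0570. Cox6b2, mainly a testis isoform, had 29.3 and 29.8 CPM against 17.1 and 11.6 CPM (1.04 ± 0.24, edgeR adjusted p = 0.0664). The heart and muscle isoform Cox7a1 had 11.5 and 10.2 CPM against 4.38 and 6.25 CPM (1.03 ± 0.26, edgeR adjusted p = 0.0745). For these 3 the knockout libraries stood above both wild types, as they did for 36.5% of all tested genes. With trends removed Cox6b2 had 0.42 and Cox7a1 0.45. Cox4i2 stayed at or below 3.67 CPM, Cox6a2 at or below 1.10 CPM, Cox8c at or below 0.940 CPM and Cox7b2 at or below 0.877 CPM in every library. Cox8b had 1 count in KO1 and 0 in the others and was not tested.

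Per length of exon, Ndufa4l2 made up 13.4% and 12.3% of the pair with Ndufa4 in KO1 and KO2, against 4.53% in WT1 and 1.62% in WT2. The share of Cox7a1 beside Cox7a2 was 14.3% and 12.4% against 6.02% and 6.12%, and that of Cox6b2 beside Cox6b1 was 11.7% and 11.4% against 7.27% and 4.68%. In these 3 pairs the shares of the groups did not overlap, while that of Cox4i2 beside Cox4i1 ran from 1.38% to 1.70% with both extremes in wild types. Nor did they overlap for Cox6a2 beside Cox6a1 (0.712% and 0.715% against 0.45% and 0.167%). The same held for Cox8c beside Cox8a (0.713% and 0.722% against 0.332% and 0.405%). Cox6a2 and Cox8c had at most 47 and 37 counts in a library. For Cox7b2 beside Cox7b the groups overlapped. These shares carry no test, and GC content differs within a pair, at 59.5% for Ndufa4l2 and 43.0% for Ndufa4. With GC and length trends removed, Ndufa4l2 went from 2.09 to 0.91 and Ndufa4 from -0.22 to 0.24 on the log2 scale. Muscle and heart markers, tested because several isoforms belong to those tissues, summed to 10.3 and 10.2 CPM (KO1 and KO2) beside 8.54 and 1.47 CPM (WT1 and WT2), with 0 of 4 tested markers called by edgeR, 1 unadjusted p under 0.05 and 1 call by DESeq2. The part of these tissues in the isoform values was not tested. Actc1 stayed below 0.1 CPM in every library.

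**Figure D3:**
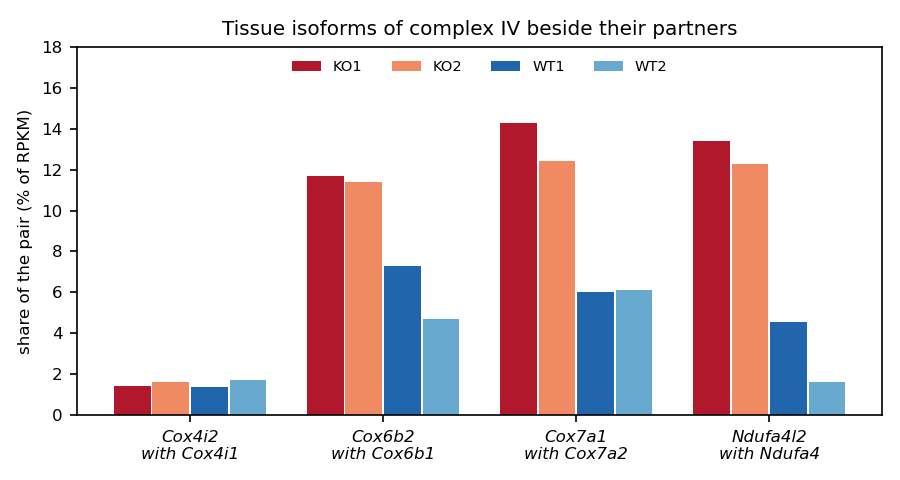
Share of the tissue isoform in the summed RPKM (CPM per kilobase of exon) of an isoform and its widely used partner (y axis, percent) for 4 pairs of complex IV (x axis), 1 bar per library. Cox6b2, Cox7a1 and Ndufa4l2 are higher in KO1 and KO2 than in WT1 and WT2, and Cox4i2 lies between 1.38% and 1.70% in all 4 libraries.

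Complex V, the ATP synthase, had 1 of 17 genes called and a median of 0.03. In its F1 head, Atp5d (Atp5f1d, chromosome 10, 80138632 to 80145818), a subunit of the rotating central stalk, had 135 and 131 CPM (KO1 and KO2) beside 58.4 and 40.9 CPM (WT1 and WT2). The groups did not overlap and the knockout mean of 133 ± 2.72 CPM compared with 49.7 ± 12.4 CPM in the wild types (SD, n = 2 each), a rise of 1.42 ± 0.21 (log2, edgeR adjusted p = 0.0482). Atp5e, its neighbour in the central stalk, had a log2 fold change of 0.75 ± 0.19 at an edgeR adjusted p of 0.0782. The catalytic ring genes were not called. Atp5b, the catalytic beta subunit, had knockout levels of 2361 and 2363 CPM beside wild-type levels of 2111 and 2400.3 CPM, inside their range, with a log2 fold change of 0.07 ± 0.13. Atp5a1, the alpha subunit, had a log2 fold change of 0.32 ± 0.12 at an edgeR adjusted p of 0.13.

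The parts of complex V in and beside the membrane had no call. Medians were 0.22 for the 3 genes of the c-ring, -0.38 for the 4 of the peripheral stalk and -0.27 for the 4 of the membrane part. Atp5mpl, a small membrane subunit, had 69.2 and 72.9 CPM against 79.4 and 135 CPM (-0.59 ± 0.29, edgeR adjusted p = 0.205), and Atp5j of the peripheral stalk 153 and 164 CPM against 162 and 295 CPM (-0.53 ± 0.32, edgeR adjusted p = 0.286). In both genes WT1 was closer to the knockouts and WT2 was highest. The inhibitor of the enzyme, Atpif1, falls outside the symbol rule and had a log2 fold change of 0.28 ± 0.14 at an edgeR adjusted p of 0.209, and -0.07 with trends removed. Usmg5, a small membrane subunit also outside the rule, had 22.9 CPM (KO1), 26.2 CPM (KO2), 28.8 CPM (WT1) and 43.9 CPM (WT2). It did not pass (-0.57 ± 0.26, edgeR adjusted p = 0.185) and had -0.04 with trends removed.

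Fold changes of the members followed the GC content of their transcripts. Across the 85 members Pearson's r was 0.714 (Spearman's rho 0.73), a description across genes that share the same 4 libraries, and across 16903 tested genes with a GC value r was 0.578. The 29 members with the lowest GC content had a median log2 fold change of -0.22 and no called gene. The middle 28 had a median of 0.27 with 3 called, and the highest 28 a median of 0.85 with 5 called. Medians over all tested genes rose with GC content too. Between 44% and 46% GC the median over 1613 genes was -0.47, beside -0.42 for 9 members, and between 58% and 60% GC it was 1.08 over 952 genes, beside 1.42 for 7 members. Wild-type libraries differed along GC content too, since WT2 over WT1 had r = -0.526 with GC across the members. Across the 16903 tested genes with a GC value that r was weaker, at -0.286.

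Called members stood differently against genes of like GC content. Cox6a1, at 60.9% GC, had a log2 fold change of 0.90, below the median of 1.35 over the 401 genes between 60% and 62%. Ndufa2 and Uqcrq, both at 51.7% GC, had 1.38 and 1.13, where the 1823 genes between 50% and 52% had a median of -0.02.

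**Figure D4:**
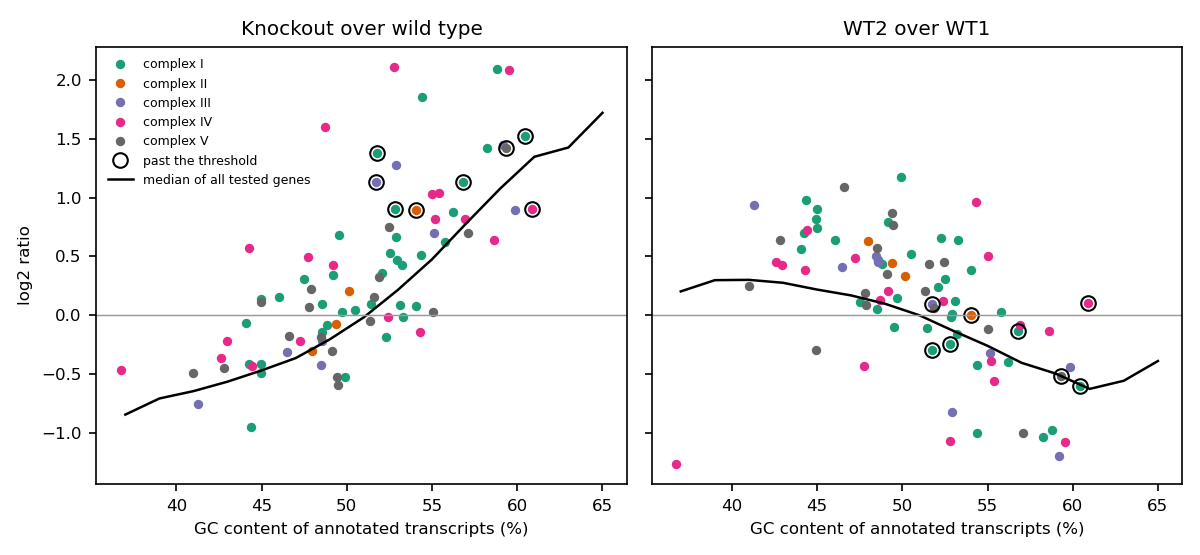
GC content of the annotated transcripts (x axis, percent) against the log2 ratio of knockout over wild type (left) and of WT2 over WT1 (right), 1 point per member coloured by complex, with rings on the 8 called members and a line for the median of all tested genes. Members follow the line of all genes upwards on the left (r = 0.714) and downwards on the right (r = -0.526).

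With the GC and length trends of each library removed, no member and no gene passed in edgeR. In that fit 56 of the 85 tested members had a fold change above 0, beside 8088 of all 17022 tested genes. Of the 8 called members, 7 kept a fold change above 0. Ndufa2 had 1.21 ± 0.14, Uqcrq 0.99 ± 0.10, Ndufa7 0.65 ± 0.11 and Sdhb 0.49 ± 0.10 after removal. Ndufs8, Atp5d and Ndufa13 came down to 0.28, 0.25 and 0.21, and Cox6a1 turned to -0.54 ± 0.26. The median of complex III went from 0.70 to 0.02 and that of complex IV from 0.57 to 0.24, while that of all members was 0.15 in both fits. Ndufb7 and Ndufs7 kept 1.49 and 1.02, Cyc1 turned to -0.34, and Ndufs1 had -0.44.

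**Figure D5:**
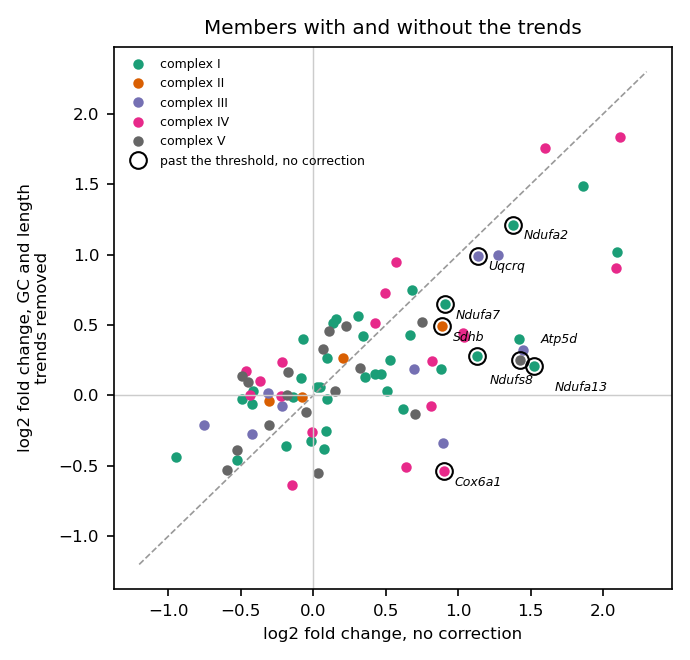
Log2 fold change of each tested member without correction (x axis) and with GC and length trends removed (y axis), with rings and names on the 8 called members and a dashed line where both are equal. Ndufa2 and Uqcrq stay near the dashed line at 1.21 and 0.99, Ndufs8, Atp5d and Ndufa13 fall to between 0.21 and 0.28, and Cox6a1 lies below 0 at -0.54.

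The wild-type libraries were far less alike than the knockout libraries. WT1 and WT2 differed by more than 1.5-fold for 28 of the 85 members, KO1 and KO2 for 0, and 77 members had the smaller gap in the knockout pair. Over all genes with enough counts, chi-square per degree of freedom was 2.26 for the knockout pair and 166.7 for the wild-type pair. On chromosomes 1 and 15 the median of the members shifted between the wild types in the direction of their neighbours. On chromosome 1 the median log2 ratio of WT2 over WT1 was 0.54 over 1070 genes and 0.74 over the 6 members, which include Ndufs1 and Sdhc. On chromosome 15 it was -0.61 over 666 genes and -0.43 over the 5 members, which include Cyc1 but also Ndufb9, at 0.03. Members elsewhere also differed between the wild types where their neighbours hardly did. On chromosome 16 the medians were 0.87 over 3 members and 0.07 over 489 genes. On chromosome 10 they were -0.75 over 6 members and -0.04 over 768 genes. None of the 8 called members lies on chromosome 1 or 15, and the part of the shift there in the fold changes of Ndufs1 and Cyc1 was not tested.

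Some members also shared promoter sequence that the rule did not use. RefSeq promoter windows on GRCm38.p6, from 250 bases before to 50 after the start, were matched for 69 members, in 74 windows. Both strands were searched for the core motifs of NRF1 (GCATGCGC) and YY1 (AAGATGGC), both known from promoters of respiratory chain genes, for the ETS element bound by GABPA (CCGGAAG) and for the GC box (GGGCGG). The NRF1 letters were in 13.5% of member windows and 2.71% of all 32851 windows, the YY1 letters in 13.5% and 2.75%, the ETS letters in 21.6% and 8.86%, and the GC box in 40.5% and 35.7%. Promoter stretches of 120 bases up to the start are shown as examples for Ndufa11, Uqcr11 and Uqcrh, none of them called. They run 5' to 3' on the strand of the gene and carry an NRF1 or ETS match (capitals). Other members described above also hold a match there and are not printed, among them the called Sdhb (NRF1) and Cox6a1 (ETS).
Ndufa11: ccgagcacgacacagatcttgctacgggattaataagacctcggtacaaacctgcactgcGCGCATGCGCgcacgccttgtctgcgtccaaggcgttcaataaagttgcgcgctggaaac
Uqcr11: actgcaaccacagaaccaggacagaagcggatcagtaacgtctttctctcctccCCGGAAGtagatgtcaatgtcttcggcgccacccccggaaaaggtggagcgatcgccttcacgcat
Uqcrh: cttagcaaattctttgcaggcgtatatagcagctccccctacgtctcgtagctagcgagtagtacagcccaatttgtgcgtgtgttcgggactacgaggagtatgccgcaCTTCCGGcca
They lie at chr17:56717642-56717761 (plus strand), chr10:80406822-80406941 (minus strand) and chr4:116075071-116075190 (minus strand). In Ndufa11 the NRF1 letters occur on both strands and overlap, because the motif is nearly its own reverse complement, and the ETS letters of Uqcrh are on the opposite strand, reading CTTCCGG. Uqcr11 also holds the NRF1 letters across its start, only in part within the printed stretch. Such matches are descriptions, not binding sites. The 10 members with the NRF1 letters had a median log2 fold change of 0.70 against 0.08 in the 59 without. Cox8b, which holds none of the motifs and was not tested, gave no value to these or the following medians. With GC and length trends removed the medians were 0.16 and 0.14. For ETS the medians were 0.04 with and 0.12 without, for YY1 0.09 and 0.13, and for the GC box 0.09 and 0.15. Removing the trends gave 0.02 and 0.17 for ETS and 0.06 and 0.18 for the GC box, and turned the order for YY1, at 0.21 and 0.13.

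Other genes of the pathway were described from lists of regulators, assembly factors and partners. Of 16 tested regulators 1 rose, Esrra, a nuclear receptor that works with PGC-1 coactivators, from 5.03 and 3.30 CPM in WT1 and WT2 to 15.9 and 16 CPM in KO1 and KO2 (1.93 ± 0.27, edgeR adjusted p = 0.0482, and 0.94 with trends removed). Ppargc1a, which encodes PGC-1alpha, had at most 0.0501 CPM. The list's median was -0.51, and -0.11 with trends removed. DESeq2 called 2 regulators higher and 5 lower, and 11 of the 16 lay below both wild types in both knockout libraries, where 34.8% of all genes did. Among them Gabpa, the ETS factor named above, had -0.68, Yy1 -0.80 and Tfam, which packages mitochondrial DNA, -0.68 (edgeR adjusted p = 0.0558, 0.0639 and 0.0641). They had -0.11, -0.70 and -0.22 with trends removed. Of 45 tested assembly factors 3 rose (6.67%, beside 3.51% of all tested genes) and 0 fell, with a median of -0.10. They were Cox16 (5.25 and 5.23 CPM against 0.952 and 0.583 CPM, 2.76 ± 0.35), which acts in building complex IV, Ndufaf3 (1.22 ± 0.19) for complex I and Uqcc2 (1.14 ± 0.14) for complex III, each with an edgeR adjusted p of 0.0482. DESeq2 called 6 higher and 3 lower in that list. With trends removed Cox16 had 3.31, Ndufaf3 0.58 and Uqcc2 0.39, none of them called, and the list a median of -0.02.

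Of 13 subunits encoded in mitochondrial DNA, 12 had fold changes below 0, with a median of -0.37 that became 0.32 with trends removed. Their transcripts are poor in GC, with a median of 37.1%. By edgeR only mt-Atp8, a small subunit of complex V, fell, while DESeq2 called 3 of the 13 lower and 1 higher. The levels of mt-Atp8 were 5.90 and 7.51 CPM in the knockouts against 18.7 and 17.1 CPM (-1.42 ± 0.21, edgeR adjusted p = 0.0482, and -0.46 with trends removed, edgeR adjusted p = 0.297). They were low beside mt-Co1 (11846 to 14479 CPM). How reads with several matches were counted is not given, so the level of mt-Atp8 is uncertain. Among 76 genes of the mitochondrial ribosome 7 rose and 0 fell with a median of 0.06. The 7 were 9.21% of that list, near the 9.41% of the members, against 3.51% of all tested genes. They were led by Mrps12 (35.1 and 32.6 CPM against 10.2 and 8.94 CPM, 1.82 ± 0.16) and Mrpl4 (1.26 ± 0.14). With trends removed these came to 0.93 and 0.15, and the median of the list to 0.00. The 16 citric acid cycle genes had no edgeR call, 3 unadjusted p under 0.05, 2 lower calls by DESeq2 and a median of -0.05. Pdha1 of pyruvate dehydrogenase had the smallest p (-0.59 ± 0.11, edgeR adjusted p = 0.0564). The 19 genes of electron carriers and coenzyme Q synthesis had no edgeR call either, 10 unadjusted p under 0.05, 5 higher calls and 1 lower by DESeq2, and a median of 0.19. Coq2, which attaches the side chain of coenzyme Q, came closest (0.66 ± 0.13, edgeR adjusted p = 0.0588).

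Markers of other cell types moved with the groups, and their part in the values above was not tested. In bulk RNA, fewer cells of a type and less RNA per cell cannot be told apart. All 9 tested markers of primitive and parietal endoderm had fold changes below 0, with a median of -2.64, or -2.68 with trends removed. By edgeR 3 of them fell, among them Lama1 and Cubn, and DESeq2 called 8 lower. The 10 listed markers summed to 238 and 237 CPM (KO1 and KO2) beside 470 and 719 CPM (WT1 and WT2), so the wild types also differed from each other. Of 5 neural markers 2 rose, Pax6 (1.59 and 1.94 CPM against 0.326 and 0.305 CPM) and Tubb3 (1.13 ± 0.14 on the log2 scale, but 0.08 with trends removed, beside 2.71 for Pax6), and the list summed to 102 CPM in each knockout library, 58.7 CPM (WT1) and 52.1 CPM (WT2). The neural list had 4 fold changes above 0 and 1 below, and 1 marker lay below both wild types in both knockout libraries. Its median was 0.88, or 0.26 with trends removed. Of the 8 fibroblast and feeder markers 6 were tested, without Lum and Postn, and they had 0 calls by edgeR, 3 unadjusted p under 0.05 and 2 higher calls by DESeq2. All 8 summed to 58.4 and 53.4 CPM against 39.9 and 32.4 CPM, with Dcn, Lum and Postn at 0 in both wild types.

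Per length of exon, Atp5b was the most abundant member, with a median of 557.4 RPKM over the 4 libraries, followed by Atp5a1 (470.4, 468, 368 and 383 RPKM), and in complex IV the highest was Cox4i1 (median 231 RPKM). Medians over the members of a complex were lowest in complex I, at 39.5 RPKM, and highest in complex III, at 81.6 RPKM. Low values need care where sequence is shared with other genes. Of the 86 members, 43 shared no 50-base stretch with another annotated gene, 30 shared some with a pseudogene, and 13 shared at least 10% of their stretches, up to 38.3% in Atp5g2 and 25.4% in Uqcrb. The 8 called members were all below 10%, with Cox6a1 highest at 9.16%. How reads with several matches were counted is not given in the sources used here, so the levels of these 13 are uncertain. Besides Uqcrb and Atp5g2 they include Cox7c (22.1%), Ndufs5 (21.7%) and Ndufb4 (18.3%). Atp5l shared 7.63% of its stretches, with 284 genes, and had the lowest level of complex V, at 0.665 RPKM, which is uncertain too.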

How the data were processed

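Poly(A) RNA was sequenced from 4 libraries with a reverse-stranded TruSeq protocol, per the labels. The authors deposited unnormalised read counts for each Ensembl gene. The submitters' processing notes name STAR 2.4.2a, featureCounts 1.4.5-p1 and mm10. Annotation release, strand setting and the handling of reads with several matches are not given in the sources used here.

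The test was that of edgeR 4.0.16 (R 4.3.3; TMM scaling, expression filter with minimum count 10 and minimum total 15, quasi-likelihood fit of group alone, Benjamini-Hochberg adjustment over all genes, threshold 0.05), on a fit tested on simulated data. DESeq2 1.42.0 was an alternative. CPM values are TMM-scaled, fold changes (log2) set the knockout over the wild type, and RPKM divides CPM by the exon length of GENCODE M21 on mm10, which also gave coordinates and GC content. GC and length trends were lowess curves (span 0.3) per library, removed as offsets. Log2 CPM ratios of single libraries used a prior count of 2. Names came from a gene name table, which matched 42462 of 43629 identifiers (97.3%), and 1 listed regulator, Mterf1, was not matched. Promoters came from RefSeq on GRCm38.p6, and Python 3.11.15 with pandas 2.3.3 and matplotlib 3.10.9 did the rest.

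Members, lists and tests were chosen with earlier results of these data known. Named genes were 15 genes taken whatever their values, every called member, the 2 highest and 2 lowest tested members of each complex with a mean log2 CPM of at least 1, the tissue isoforms, and up to 2 raised and 2 lowered genes of each other list or else the one with the smallest p. Of the genes taken whatever their values, 1 is not reported here. Other genes were named after their values were seen. The replicate numbers stand for different Drosha alleles and passages and pair no samples. Depth limits genes below about 1 CPM. That limit concerns counting error only, and the counts carry no molecular identifiers. The edgeR p-values and SE also hold the spread between libraries. The SE of an edgeR fold change was its absolute log2 value over the square root of the F statistic.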

Additional observations from a re-analysis of the deposited data

How the results depend on the processing

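The 8 members called higher became 0 with upper-quartile scaling, 0 with library totals alone, 0 with the knockout libraries summed as 1 sample and 0 once the GC and length trends were removed, fits in which no gene of any kind was called. It became 23 without a filter on low counts, where 6.09% of all genes were called higher, and 25 with DESeq2 (12.9%), which also called 1 lower. DESeq2's size factors in edgeR, and pseudogene counts added to their parents, left 8. With a replicate block 17 were called higher (7.95% of all genes), and 0 with the replicate block and trends removed. Library totals alone, which move the median of all genes to 0.13, gave medians of 0.31 for all members, 0.72 for complex IV and 0.17 for complex V. With trends removed the medians of complexes III and IV were 0.0175 and 0.24, and 0.0189 and 0.24 with the block, and Cox6a1 turned to -0.54 (-0.50 with the block). Leaving out 1 library at a time gave 0 to 57 members higher and 0 to 31 lower, with medians of 0.15 to 0.36 for all members, -0.12 to 0.28 for complex II, 0.53 to 0.70 for complex IV and -0.0488 to 0.14 for complex V, and a log2 fold change of -0.28 to 0.17 for Sdhd. Fewer samples and, without a wild type, a spread from the knockout pair alone are built into these fits, and the cause of the other changes was not tested. The samples share only a number (correlation of the deviations of replicate 1 of both groups 0.0461), so the block says nothing of a paired design. Depth is not what limits the called members, at 16.7 CPM or more, whereas the tissue isoforms below 1 CPM rest on few counts.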
